A study of Mus musculus with 20 samples.

Results

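The lysosomal hydrolases and activators described here are 36 genes among the 45706 gene identifiers counted. They were chosen by their known function and not by any measured value, though with earlier results of these data known. They are acid hydrolases of the lysosome, the activator and cofactor proteins that these enzymes need, and a few lysosomal proteins that work beside them. Hgsnat, a membrane acetyltransferase, is counted among the last. Cathepsins B to Z were left out of the list. All 36 were found in the files. By substrate they fall into 8 genes for glycoprotein sugars and glycogen, 8 for glycosaminoglycans, 8 for sphingolipids, 6 for other lipids, and 6 for proteins, phosphate esters and nucleic acids.

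The RNA came from a mouse model of breast cancer, the PyMT mouse, in which the polyoma middle T oncogene is expressed in the mammary epithelium. The gene removed was Ctsd, which encodes the lysosomal aspartic protease cathepsin D. Tumor tissue of 18-week-old mice was sequenced from 4 control animals, labelled WT, and 4 MMTV-cre;Ctsd-/- animals, labelled Ctsd-KO, in which Cre is driven in mammary epithelial cells so that the stroma keeps the gene. In addition, spontaneously immortalized tumor cells from 1 WT mouse and from 1 Ctsd-KO mouse were kept in a mild starvation medium with 1% FCS (fetal calf serum), either for 10 days (1% FCS) or for 12 weeks (1% FCS LT, for long-term), with 3 replicates in each of these 4 groups. All mice carried PyMT, on a C57BL/6N background by the study's methods. Those methods count mice with untargeted or floxed Ctsd alleles as controls and do not state the alleles of the control tumors sequenced. The WT cells came from a Ctsd+/+ mouse. Since each genotype is represented by the cells of a single mouse, the genotype and the cell line cannot be told apart.

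Lysosomal hydrolases are made in the endoplasmic reticulum, most are tagged with mannose 6-phosphate in the Golgi, and receptors for that tag carry them to the lysosome, where the low pH activates them. Most act as exoenzymes that take a polymer or lipid apart step by step, so that the loss of a single enzyme leaves its substrate stored in the lysosome. Sphingolipid breakdown also needs activators such as the saposins, which lift lipids out of the membrane. Many of the genes belong to a network that the transcription factors TFEB, TFE3 and MITF control through a short palindromic promoter motif centred on CACGTG.

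Gene levels are given as CPM (counts scaled to the library size, with TMM normalization), and differences as log2 fold change (log2 FC) ± SE from edgeR's quasi-likelihood fit. Gene counts were 49725437 to 64291587 in the tumors and 33622831 to 40239762 in the cell samples. Ctsd itself stood at 4199, 2858 and 1267 CPM in WT 1% FCS cells and at 192, 141 and 131 CPM in Ctsd-KO 1% FCS cells. In long-term culture it was 1627, 1667 and 1895 CPM in WT and 123, 114 and 151 CPM in Ctsd-KO cells. The genotypes therefore did not overlap at either time, and Ctsd was lower in Ctsd-KO cells by log2 FC -4.16 and -3.74. In tumors it ranged from 1781 to 2617 CPM in controls and from 360.2 to 1295 CPM in Ctsd-KO mice (log2 FC -1.25).

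The 3 WT 1% FCS libraries stood apart from the other cell samples in their cell type markers. The summed level of 8 mammary epithelial markers (Epcam, Cdh1, keratins and Cldn7) was 940.4 to 1752 CPM there, against 4481 to 4957 CPM in WT 1% FCS LT, 7581 to 10415 CPM in Ctsd-KO 1% FCS and 5395 to 6269 CPM in Ctsd-KO 1% FCS LT. The summed level of 8 fibroblast markers was 1178 to 3310 CPM in WT 1% FCS and at most 99.8 CPM in any other cell sample. Of these 8, Col1a1, Pdgfrb, Col3a1 and Pdgfra carried the signal, while Dcn, Lum and Thy1 were at or near 0. Only 5 of the 8 passed the filter on low counts in cells. All 5 were called lower in Ctsd-KO than in WT cells in 1% FCS, beside 25.1% of all genes. The 10 macrophage markers summed to at most 12.0 CPM in 3 of the 4 groups and to 53.9 to 59.1 CPM in WT 1% FCS LT, almost all of it Csf1r, with C1qa, C1qb, C1qc and Tyrobp at or near 0. The part of these differences in the members' values was not tested. In bulk samples, fewer cells of a type and less RNA per cell cannot be told apart. The WT 1% FCS group is contrasted in the genotype comparison in 1% FCS, the culture time comparison in WT cells and the interaction. The markers touch all of these. The genotype comparison in 1% FCS LT and the culture time comparison in Ctsd-KO cells do not contrast that group. All cell samples were fitted together, however, so it entered the filter, the scaling and the estimate of spread behind their p-values. Some markers were called in these comparisons too. In 1% FCS LT, 2 epithelial markers were higher in Ctsd-KO cells (Krt18 0.78 and Cldn7 0.43, log2 FC) and 2 lower (Krt14 -3.78 and Cdh1 -1.05). In the same comparison 2 fibroblast markers were higher (Pdgfrb 6.56 and Pdgfra 1.59) and 2 macrophage markers lower (Csf1r -3.42 and Ptprc -1.93). With time in Ctsd-KO cells Cdh1 was called lower (-1.12), and the fitted change was negative for 7 of the 8 epithelial markers.

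Per kilobase of exon, Psap was the highest of the 36 in all 6 groups and Grn the second. Psap, the precursor of the 4 saposins, had a mean of 484 CPM per kb in WT 1% FCS, 382 in WT 1% FCS LT, 496 in Ctsd-KO 1% FCS, 505 in Ctsd-KO 1% FCS LT, 327 in control tumors and 464 in Ctsd-KO tumors. Grn, the precursor of the granulins, ranged from 94.7 to 159 CPM per kb over the same groups. Psap was thus more than 2 times the level of the next member everywhere, and the median member lay between 15.1 and 20.7 CPM per kb. Galc, the galactosylceramidase that degrades myelin lipids, was last or among the last 4, at 0.872 CPM per kb in control tumors and 5.31 in Ctsd-KO 1% FCS LT cells. Its annotated exons add up to 14879 bases, the most of the 36, which lowers its level per kb. Not divided by length, its mean was 44.8 CPM in WT 1% FCS and 79.1 CPM in Ctsd-KO 1% FCS LT cells. Tumors and cells differed in the order of some members. Lipa, the lysosomal acid lipase, ranked 5 and 7 in the 2 tumor groups and 29 to 34 in the cells, whereas Asah1, the acid ceramidase, ranked 12 and 14 in tumors and 3 or 4 in cells. Tumors were counted without regard to strand and cells on 1 strand, and the 2 materials were normalized apart, so this is a comparison of ranks and was not tested.

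The promoter table of RefSeq (GRCm38.p6, 250 bases before to 50 bases after each start site) held 31 of the 36 members. It was searched for the motif named above in 3 nested forms, each of which reads the same on both strands, the longer ones containing the shorter. The longest, TCACGTGA with a G before it and a C after it, was in the promoter of 0 members and of 0.37% of all genes in the table. TCACGTGA was found for 2 members, or 6.45%, against 1.12% of all genes, and CACGTG for 8 members, or 25.8%, against 8.09% of all genes. The 8 promoters are those of Arsa, Ctsa, Gaa, Gla, Glb1, Lgmn, Naglu and Sgsh. They are shown because most of the 8 enzymes return with values in the comparisons that follow. Each line gives the sense strand upstream of the start site, 5′ to 3′, with the motif in capitals and up to 12 bases on each side. Gla had 2 copies upstream. Ctsa also had 2, the second of which begins at base 5 from the start site and is not printed.
Arsa: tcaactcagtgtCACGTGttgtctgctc
Ctsa: tgagcaaactgtCACGTGatgcag
Gaa: tttctgtgcgatCACGTGtttgactctgac
Gla: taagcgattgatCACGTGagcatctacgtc
Gla: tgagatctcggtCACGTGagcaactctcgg
Glb1: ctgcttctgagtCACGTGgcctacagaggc
Lgmn: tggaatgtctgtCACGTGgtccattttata
Naglu: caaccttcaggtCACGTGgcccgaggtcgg
Sgsh: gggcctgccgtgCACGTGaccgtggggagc
The nearest motifs ended 6 bases (Ctsa) and 10 bases (Arsa) before the start site, and the farthest, in Gla, 221 bases before it. In GRCm38.p6 the windows, with their strand, are Arsa chr15:89477425-89477452 (-), Ctsa chr2:164833749-164833772 (+), Gaa chr11:119267811-119267840 (+), Gla chrX:134601215-134601244 (-), Gla chrX:134601182-134601211 (-), Glb1 chr9:114401018-114401047 (+), Lgmn chr12:102439124-102439153 (-), Naglu chr11:101070009-101070038 (+) and Sgsh chr11:119355522-119355551 (-). A match of letters is a description of the window and does not show that a factor binds there.

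In the cells, members passed the test between the genotypes at both times and with culture time in the WT line. With culture time in the Ctsd-KO line 0 of 36 passed it, where few of all genes did (1.57% higher and 0.810% lower). In 1% FCS, 3 members were higher and 11 lower in Ctsd-KO than in WT cells at an adjusted p (Benjamini-Hochberg over all genes) under 0.05, against 23.5% and 25.1% of the 15178 genes tested. The 3 are 8.33% of the members and the 11 are 30.6%. In 1% FCS LT the split was the other way, with 10 members higher and 3 lower in Ctsd-KO cells, where 20.5% and 19.1% of all genes were called. From 1% FCS to 1% FCS LT, 3 members rose and 15 fell in WT cells, while 23.0% and 23.4% of all genes did. The 15 are 41.7% of the members. In Ctsd-KO cells 0 members were called in either direction, with 1.57% of all genes called higher and 0.810% lower. At an unadjusted p under 0.05 there were 4 members in that comparison, beside 2727 of all 15178 genes. DESeq2 called 1 higher (Galc), beside 4.39% of all genes. The interaction of genotype and culture time, which is the Ctsd-KO minus WT difference in 1% FCS LT less that in 1% FCS, passed the test for 11 members in the positive and 2 in the negative direction, against 16.1% and 14.1% of all genes.

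**Figure D1:**
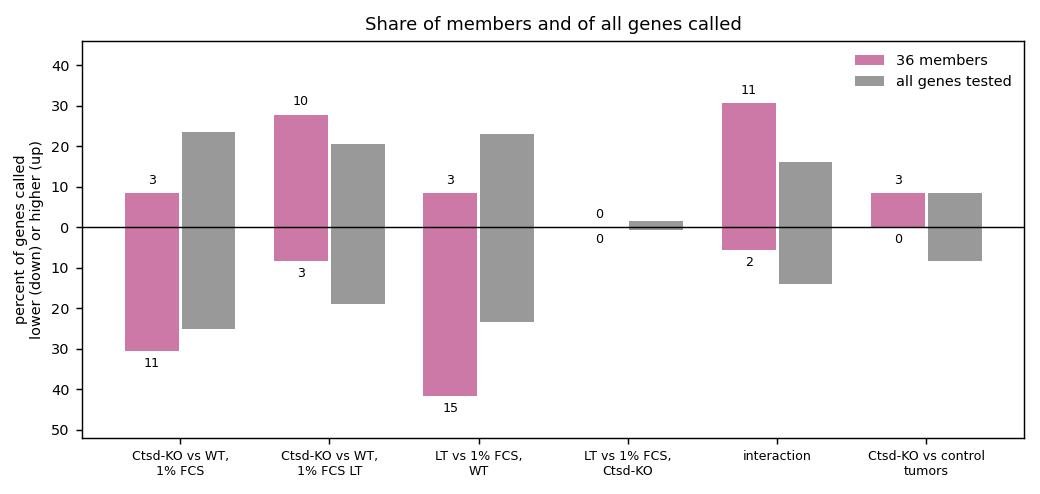
Share of the 36 members (pink, with their number) and of all genes tested (grey) called higher (above 0) or lower (below 0) in each comparison, in percent on the y axis. Calls are at an adjusted p under 0.05 in cells and at an unadjusted p under 0.1 in tumors. With culture time in WT cells 15 of 36 members and 23.4% of all genes were called lower. In the interaction 11 of 36 members and 16.1% of all genes were called higher. With culture time in Ctsd-KO cells 0 members were called, beside 1.57% of all genes called higher and 0.810% lower.

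The 4 cell comparisons share groups, so their values are given side by side. The median log2 FC of the members was -0.26 for genotype in 1% FCS and 0.30 for genotype in 1% FCS LT. With culture time it was -0.33 in WT and 0.05 in Ctsd-KO cells, and for the interaction it was 0.39. The median of all genes lay within 0.02 of 0 in each. The fitted changes with culture time ran from -1.67 to 1.41 in WT cells and from -0.49 to 0.67 in Ctsd-KO cells, with SEs of 0.13 to 0.34 in both. Without overlap between the 3 and 3 replicates, 4 members were higher and 9 lower in Ctsd-KO 1% FCS (27.6% of all genes in either direction), and 19 were higher and 4 lower in Ctsd-KO 1% FCS LT (27.9% and 26.4%). With culture time 4 were higher and 14 lower in WT (27.3% and 26.3%), and 3 higher and 1 lower in Ctsd-KO cells (13.5% and 11.9%). With an absolute log2 FC above 1 in addition, 2 members were higher and 1 was lower in Ctsd-KO 1% FCS (10.3% and 14.6% of all genes), and 4 were higher and 0 lower in Ctsd-KO 1% FCS LT (9.24% and 10.1%). By the same rule 1 rose and 7 fell with time in WT cells (11.0% and 12.3%), and the interaction called 5 in the positive and 1 in the negative direction (11.0% and 8.12%). The 2 genotype comparisons share no samples, but they contrast the same cell lines in the same fit and are not independent. In both, 6 members were called, which is 6 of 14 in 1% FCS and 6 of 13 in 1% FCS LT. Of all 15178 genes, 7367 were called in 1% FCS and 6003 in 1% FCS LT, in either direction. The share of all genes called in both comparisons was not computed, so the 6 cannot be set against it. Of the 6 members, Neu1 and Hgsnat were higher in Ctsd-KO cells in both, and Sgsh and Ppt1 were lower in both. Lipa and Scpep1 were lower in 1% FCS and higher in 1% FCS LT. Another 12 members (Aga, Arsb, Asah1, Ctsa, Gaa, Galc, Gla, Ids, Idua, Psap, Smpd1 and Tpp1) passed no test in the cells. The share of all genes that passed none was not computed.

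**Figure D2:**
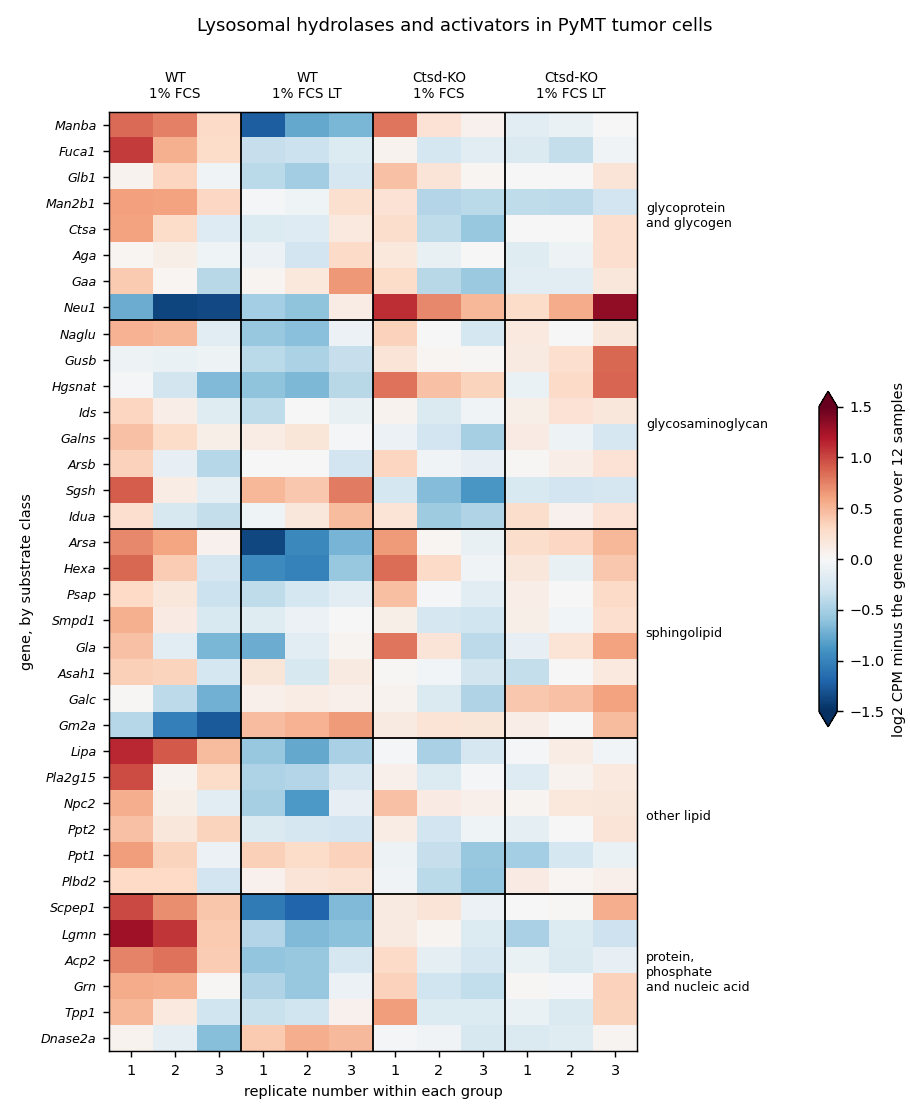
Log2 CPM of the 36 members in the 12 cell samples, less the mean of each gene over the 12 (colour scale, log2), with replicates 1 to 3 of each group as columns and genes grouped by substrate class. The WT 1% FCS LT columns are below the mean for Scpep1, Lipa, Manba, Arsa and Hexa and above it for Gm2a and Dnase2a.

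The count of calls in the genotype comparison of 1% FCS LT was 13 higher and 4 lower when the 3 WT 1% FCS libraries were left out of the fit, an alternative chosen after seeing the data in which 22.1% and 21.5% of all genes were called. With the same samples, culture time in Ctsd-KO cells gave 1 call higher (Galc) and 0 lower, against 2.51% and 1.62% of all genes. Leaving out replicates one at a time moved the number called higher in Ctsd-KO 1% FCS LT to 6 without WT 1% FCS LT replicate 2 (15.7% of all genes) and also to 6 without Ctsd-KO 1% FCS LT replicate 3 (17.1%). The number called lower in 1% FCS became 7 without Ctsd-KO 1% FCS replicate 3 (20.5%), and the number that rose with time in WT cells became 5 without WT 1% FCS replicate 1 (21.1%).

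Of the 6 genes for proteins, phosphate esters and nucleic acids, 4 fell and 1 rose with culture time in WT cells (23.4% and 23.0% of all genes). Scpep1 (chr11:88924020-88955465, GRCm38, minus strand), a serine carboxypeptidase of the lysosome, had 387, 316 and 259.6 CPM in WT 1% FCS and 93.1, 85.2 and 123 CPM in WT 1% FCS LT. Ctsd-KO cells had 213, 222 and 182 CPM in 1% FCS and 196, 196 and 284 CPM in 1% FCS LT. The WT groups lay above the Ctsd-KO cells at 10 days and below them at 12 weeks, without overlap at either time. Scpep1 was lower in Ctsd-KO 1% FCS cells by log2 FC -0.64 ± 0.19 (adjusted p = 0.017) and higher in Ctsd-KO 1% FCS LT cells by 1.17 ± 0.20 (adjusted p = 6.4e-04). It fell by 1.67 in WT cells with time (adjusted p = 4.0e-05), and its interaction was the largest of the list, 1.81 ± 0.28 (adjusted p = 5.3e-04). Its call in 1% FCS was lost without WT 1% FCS replicate 1 or Ctsd-KO 1% FCS replicate 3 (adjusted p up to 0.069).

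Lgmn (chr12:102394084-102439813, minus strand) encodes legumain, a protease that cuts after asparagine and matures other lysosomal enzymes. It had 182, 159 and 99.1 CPM in WT 1% FCS, 55.3, 47.6 and 48.96 CPM in WT 1% FCS LT, 82.7, 77.5 and 65.4 CPM in Ctsd-KO 1% FCS and 53.9, 65.5 and 60.6 CPM in Ctsd-KO 1% FCS LT. All 3 WT 1% FCS values were above the 9 others. Lgmn was lower in Ctsd-KO cells in 1% FCS (log2 FC -0.96 ± 0.19, adjusted p = 0.0013) and fell with time in WT cells (-1.53 ± 0.19, adjusted p = 5.8e-05), and did not pass in the other 2 comparisons (0.25 ± 0.19 and -0.33 ± 0.19). Acp2, the lysosomal acid phosphatase, had the same order of groups, with means of 77.4 ± 12.1 (SD, n = 3), 35.6 ± 4.83, 48.5 ± 9.82 and 44.3 ± 1.90 CPM in the same sequence. It fell by 1.12 on the log2 scale in WT cells with time (adjusted p = 1.7e-04). Grn fell in WT cells as well (-0.75 ± 0.22, adjusted p = 0.014), a call that was lost without WT 1% FCS LT replicate 2 (adjusted p up to 0.061). Its interaction was 0.94 ± 0.31 (adjusted p = 0.037), which failed without WT 1% FCS replicates 1 or 2, Ctsd-KO 1% FCS replicates 2 or 3, WT 1% FCS LT replicates 1 or 2 or Ctsd-KO 1% FCS LT replicates 1, 2 or 3 (adjusted p up to 0.09). Dnase2a, the acid DNase that clears DNA from the lysosome, went the other way. It rose in WT cells from 38.1, 33.5 and 23.7 CPM to 48.4, 53.9 and 51.8 CPM (log2 FC 0.69 ± 0.16, adjusted p = 0.0034) and stood at 31.7, 32.5 and 37.9 CPM in Ctsd-KO 1% FCS LT, below all WT 1% FCS LT values (-0.59 ± 0.16, adjusted p = 0.0097). Tpp1, a tripeptidyl peptidase, passed no test.

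**Figure D3:**
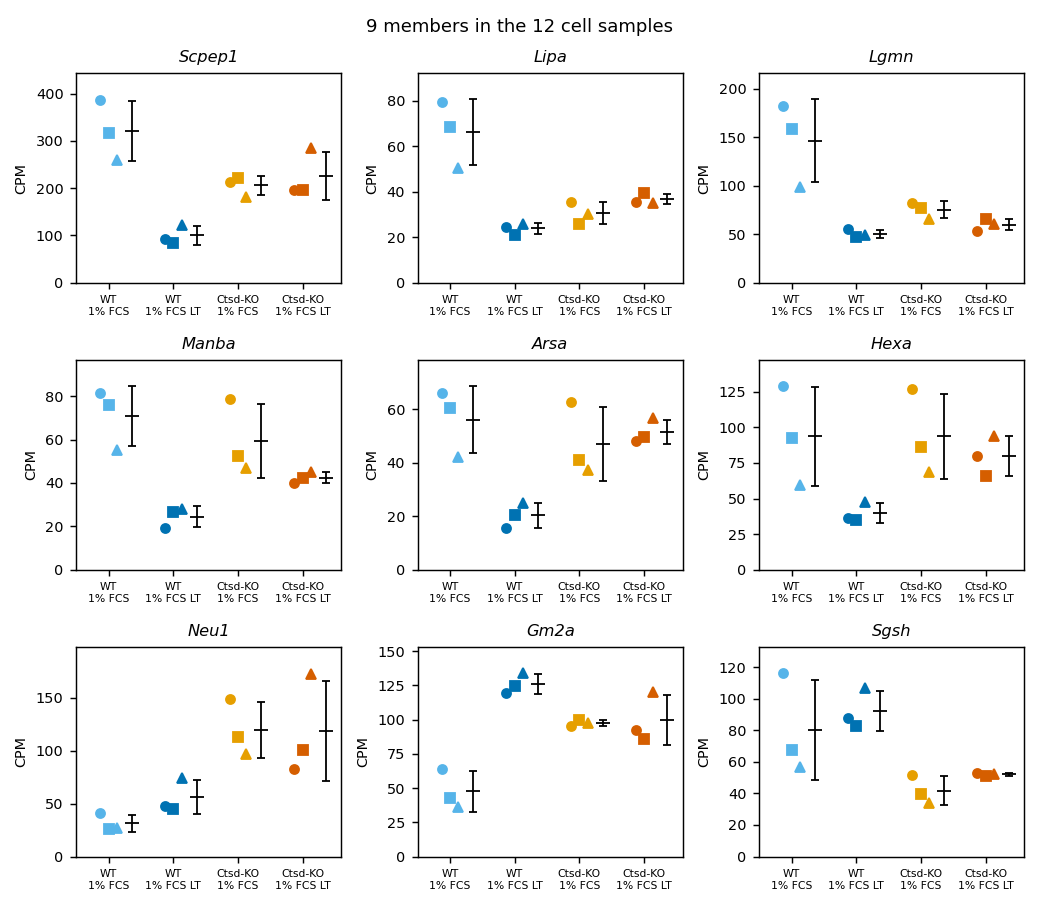
CPM of 9 members in the 12 cell samples, from 0 on each y axis. Circles, squares and triangles are replicates 1, 2 and 3 of each group, and the bar beside them is the mean ± SD (n = 3). Scpep1, Lipa, Lgmn, Manba, Arsa and Hexa have their lowest mean in WT 1% FCS LT, Neu1 and Gm2a their lowest in WT 1% FCS, and Sgsh its lowest in Ctsd-KO 1% FCS.

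Of the 6 genes for lipids other than sphingolipids, 4 fell with time in WT cells (23.4% of all genes). In Ctsd-KO 1% FCS cells 4 of these 6 genes were lower than in WT (25.1% of all genes). Lipa (chr19:34492318-34527474, minus strand), which frees cholesterol and fatty acids from lipoprotein esters, had 79.3, 68.6 and 50.5 CPM in WT 1% FCS and 35.4, 25.9 and 30.3 CPM in Ctsd-KO 1% FCS. At 12 weeks the values were 24.5, 21.2 and 25.9 CPM in WT and 35.6, 39.2 and 35.2 CPM in Ctsd-KO cells. The order of the genotypes turned over without overlap at either time, with log2 FC -1.11 ± 0.17 in 1% FCS (adjusted p = 2.0e-04) and 0.62 ± 0.17 in 1% FCS LT (adjusted p = 0.011). The interaction of Lipa was 1.73 ± 0.23 (adjusted p = 2.3e-04) and kept its call when any of the 12 samples was left out. Pla2g15, a phospholipase A2 of the lysosome, fell in WT cells from 44.1, 23.2 and 27.1 CPM to 16.3, 16.5 and 18.7 CPM (-0.87 ± 0.21, adjusted p = 0.0047). It was lower in Ctsd-KO 1% FCS too (-0.54 ± 0.21, adjusted p = 0.046), but not without WT 1% FCS replicate 1 or Ctsd-KO 1% FCS replicates 1, 2 or 3 (adjusted p up to 0.25). Npc2, which hands cholesterol from the lysosomal lumen to the membrane, fell in WT cells (-0.65 ± 0.20, adjusted p = 0.019) and was higher in Ctsd-KO than in WT cells in 1% FCS LT (0.59 ± 0.20, adjusted p = 0.036). The call with time was lost without WT 1% FCS replicate 1 or WT 1% FCS LT replicates 1 or 2 (adjusted p up to 0.078). The call between genotypes was lost without WT 1% FCS LT replicates 1 or 2 or Ctsd-KO 1% FCS LT replicates 1, 2 or 3 (adjusted p up to 0.14). Ppt2, a thioesterase, fell in WT cells as well (-0.57 ± 0.15, adjusted p = 0.0088), at levels of at most 12.9 CPM. It shares 36.6% of its exonic bases with Gm20460 on the same strand, so its reads are uncertain.

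Ppt1, the palmitoyl-protein thioesterase that strips fatty acids from proteins, was lower in Ctsd-KO cells at both times, and its fitted changes with time were 0.01 ± 0.18 in WT and 0.04 ± 0.18 in Ctsd-KO cells. It had 109, 88.9 and 66.9 CPM in WT 1% FCS and 67.2, 55.7 and 47.8 CPM in Ctsd-KO 1% FCS, with 1 Ctsd-KO value above the lowest WT value. At 12 weeks the WT values, 90.7, 85.9 and 89.9 CPM, did not overlap the Ctsd-KO values, 49.9, 59.04 and 66.1 CPM. The differences were -0.63 ± 0.18 (adjusted p = 0.011) and -0.61 ± 0.18 (adjusted p = 0.017). They failed, in turn, without Ctsd-KO 1% FCS replicate 3 (adjusted p up to 0.052) and without Ctsd-KO 1% FCS LT replicate 1 (adjusted p up to 0.069). Plbd2, a phospholipase B-like protein, was lower in Ctsd-KO cells in 1% FCS (-0.46 ± 0.16, adjusted p = 0.037), a call lost without WT 1% FCS replicates 1 or 2 or Ctsd-KO 1% FCS replicates 2 or 3 (adjusted p up to 0.15).

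Among the sphingolipid genes, 2 of the 8 fell in WT cells with time, the enzymes for sulfatide and ganglioside GM2, and 1 rose, the GM2 activator. Of all genes 23.4% fell and 23.0% rose in that comparison. Arsa (chr15:89472476-89477425, minus strand), the arylsulfatase that removes sulfate from sulfatide, had 66.00, 60.3 and 42.1 CPM in WT 1% FCS and 15.6, 20.6 and 24.8 CPM in WT 1% FCS LT. In Ctsd-KO cells it had 62.7, 40.9 and 37.1 CPM and 48.2, 49.8 and 56.8 CPM. The 3 WT 1% FCS LT values were below all 9 others. Arsa was higher in Ctsd-KO 1% FCS LT by log2 FC 1.34 ± 0.23 (adjusted p = 7.8e-04), the largest genotype difference among the members at that time, while in 1% FCS it did not pass (-0.26 ± 0.23). Hexa, the α-subunit of β-hexosaminidase, had 36.4, 35.2 and 47.7 CPM in WT 1% FCS LT and 79.6, 65.6 and 93.97 CPM in Ctsd-KO 1% FCS LT (1.00 ± 0.28, adjusted p = 0.014), and fell with time in WT cells (-1.23 ± 0.28, adjusted p = 0.0038). The genotype call was lost without WT 1% FCS LT replicates 1 or 2 or Ctsd-KO 1% FCS LT replicate 3 (adjusted p up to 0.057).

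Gm2a (chr11:55098115-55113029, plus strand), the activator that presents GM2 to β-hexosaminidase, rose in WT cells with time where Hexa fell. It had 64.05, 42.4 and 36.1 CPM in WT 1% FCS and 119, 124 and 134 CPM in WT 1% FCS LT, a rise of 1.41 ± 0.19 (adjusted p = 1.0e-04). In Ctsd-KO cells it had 95.02, 99.7 and 97.6 CPM in 1% FCS and 92.3, 86.1 and 120.2 CPM in 1% FCS LT. It was higher in Ctsd-KO than in WT cells in 1% FCS (1.04 ± 0.19, adjusted p = 7.9e-04), did not pass in 1% FCS LT (-0.34 ± 0.19), and had the most negative interaction of the list (-1.38 ± 0.26, adjusted p = 0.0023). Psap stood at 968, 1052 and 1127 CPM in WT 1% FCS LT and 1349, 1269 and 1538 CPM in Ctsd-KO 1% FCS LT, without overlap but short of the threshold (0.40 ± 0.19, adjusted p = 0.12). Galc was the only member with a fitted change over 0.5 with time in Ctsd-KO cells. Its values were 58.7, 48.6 and 41.2 CPM in 1% FCS and 74.6, 76.9 and 85.7 CPM in 1% FCS LT (0.67 ± 0.17, adjusted p = 0.066), again without overlap. Galc passed with DESeq2 (adjusted p = 0.011), without the filter on low counts (adjusted p = 0.020) and with the 8 samples of code LR-38862 described further on (adjusted p = 0.024). Asah1, Gla and Smpd1, which degrade ceramide, globotriaosylceramide and sphingomyelin, passed no test.

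**Figure D4:**
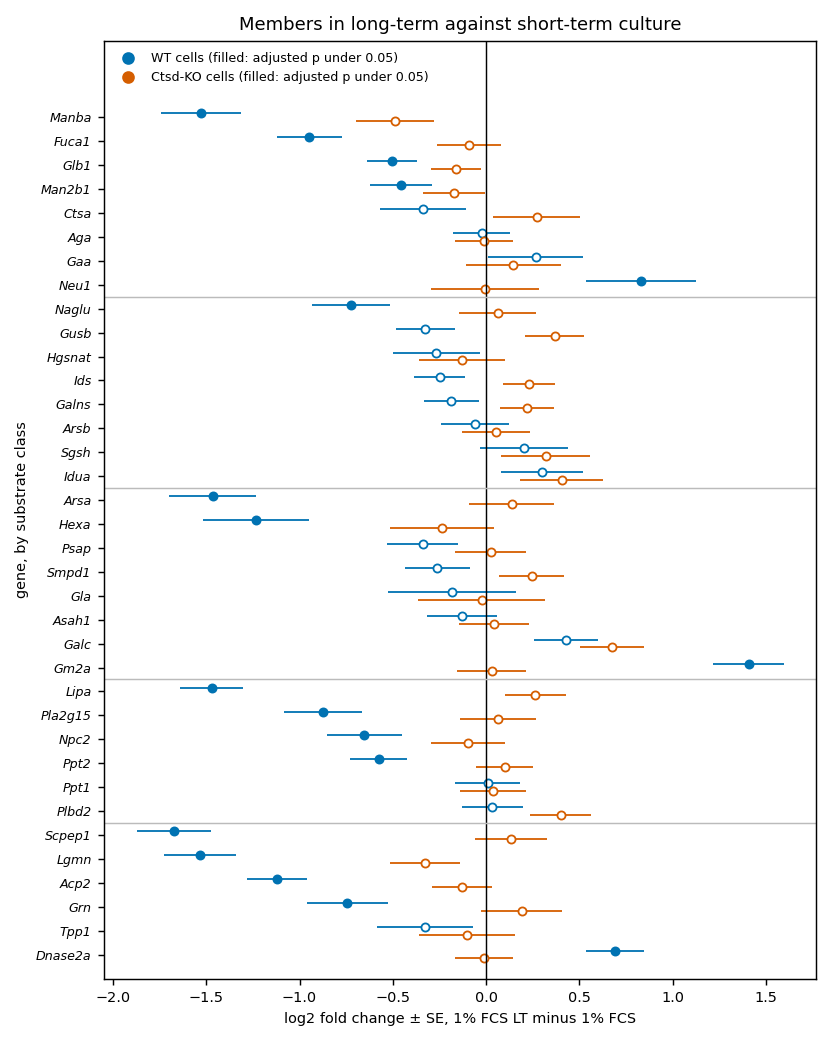
Log2 fold change from 1% FCS to 1% FCS LT (x axis, with SE bars) of the 36 members in WT cells (blue) and in Ctsd-KO cells (orange), grouped by substrate class on the y axis, with filled points for an adjusted p under 0.05. In WT cells 15 members fell and 3 rose (23.4% and 23.0% of all genes), with Scpep1 lowest at -1.67 and Gm2a highest at 1.41. In Ctsd-KO cells all points are open and lie between -0.49 and 0.67, where 1.57% of all genes were called higher and 0.810% lower.

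Of the 8 glycoprotein and glycogen genes, 4 glycosidases fell in WT cells with time and the sialidase rose (23.4% and 23.0% of all genes). Manba, the lysosomal β-mannosidase, had 81.3, 75.9 and 55.1 CPM in WT 1% FCS and 19.1, 26.5 and 27.99 CPM in WT 1% FCS LT (-1.53 ± 0.21, adjusted p = 1.4e-04). It was the member with the most negative fitted change in Ctsd-KO cells too, from 78.8, 52.5 and 47.1 CPM to 40.01, 42.2 and 45.04 CPM (-0.49 ± 0.21, adjusted p = 0.25), which did not pass. In 1% FCS LT it was higher in Ctsd-KO cells (0.79 ± 0.21, adjusted p = 0.011). Fuca1, which removes fucose, had 103, 72.5 and 60.5 CPM in WT 1% FCS and 51.98, 41.7 and 44.8 CPM in Ctsd-KO 1% FCS (-0.77 ± 0.17, adjusted p = 0.0032). Its long-term levels were 39.2, 39.96 and 43.4 CPM in WT and 42.8, 39.1 and 48.01 CPM in Ctsd-KO cells, which overlap. Man2b1, an α-mannosidase, was lower in Ctsd-KO than in WT cells in 1% FCS (-0.69 ± 0.17, adjusted p = 0.0048) and fell with time in WT cells (-0.46 ± 0.17, adjusted p = 0.041), the second call being lost without WT 1% FCS replicates 1 or 2 or WT 1% FCS LT replicates 1 or 2 (adjusted p up to 0.13).

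Glb1, the acid β-galactosidase whose activity is stained as a sign of senescence, had 62.7, 75.2 and 58.2 CPM in WT 1% FCS and 81.9, 68.95 and 61.8 CPM in Ctsd-KO 1% FCS, which overlap (0.12 ± 0.13, adjusted p = 0.49). After 12 weeks WT cells had 45.6, 42.2 and 50.6 CPM and Ctsd-KO cells 60.2, 60.7 and 69.3 CPM, a difference of 0.46 ± 0.13 (adjusted p = 0.017) that was lost without WT 1% FCS LT replicate 2 or Ctsd-KO 1% FCS LT replicate 3 (adjusted p up to 0.069). In WT cells it fell with time (-0.50 ± 0.13, adjusted p = 0.0085). Neu1 (chr17:34931253-34935953, plus strand), the sialidase that works in a complex with Glb1 and the protective protein Ctsa, had 40.96, 26.5 and 26.98 CPM in WT 1% FCS and 149, 113 and 96.7 CPM in Ctsd-KO 1% FCS. This was the largest genotype difference of the list, 1.92 ± 0.30 (adjusted p = 2.8e-04). In 1% FCS LT the values were 48.1, 45.2 and 74.3 CPM in WT and 83.1, 101 and 173 CPM in Ctsd-KO cells (1.09 ± 0.29, adjusted p = 0.012). The second difference was lost without WT 1% FCS LT replicate 2 or Ctsd-KO 1% FCS LT replicate 3 (adjusted p up to 0.054). The rise of Neu1 with time in WT cells (0.83 ± 0.29, adjusted p = 0.037) was lost without WT 1% FCS replicates 2 or 3 or WT 1% FCS LT replicate 3 (adjusted p up to 0.15). Ctsa passed no test, with genotype differences of -0.45 ± 0.23 in 1% FCS and 0.16 ± 0.23 in 1% FCS LT. Gaa, the acid glucosidase for glycogen, and Aga, which cuts the bond between asparagine and sugar, passed no test either. The fitted changes of Aga were between -0.02 and 0.02 in all 4 comparisons.

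Heparan sulfate is taken apart by Ids, Idua, Sgsh, Hgsnat, Naglu and Gusb in turn, and 4 of these 6 passed a test, in different directions. The share of all genes that passed at least 1 of the tests was not computed. Sgsh, the sulfamidase, had 116, 67.4 and 56.6 CPM in WT 1% FCS and 51.9, 39.7 and 33.9 CPM in Ctsd-KO 1% FCS (-0.94 ± 0.24, adjusted p = 0.0067). At 12 weeks it had 87.9, 82.5 and 107 CPM in WT and 53.1, 51.1 and 52.3 CPM in Ctsd-KO cells (-0.82 ± 0.24, adjusted p = 0.016). At each time the Ctsd-KO values were below the WT values. The long-term difference was lost without WT 1% FCS LT replicate 3 or Ctsd-KO 1% FCS LT replicate 2 (adjusted p up to 0.057). Hgsnat, the membrane acetyltransferase that acts on the glucosamine freed by Sgsh, was the reverse. It had 88.97, 74.7 and 57.2 CPM in WT and 159, 123 and 114 CPM in Ctsd-KO cells in 1% FCS, and 59.3, 56.4 and 67.8 CPM and 84.6, 110.5 and 166 CPM in 1% FCS LT, with differences of 0.84 ± 0.23 (adjusted p = 0.011) and 0.97 ± 0.23 (adjusted p = 0.0061). Gusb, the β-glucuronidase, was higher in Ctsd-KO cells in 1% FCS LT (0.86 ± 0.16, adjusted p = 0.0012) and Naglu, an acetylglucosaminidase, fell in WT cells with time (-0.73 ± 0.21, adjusted p = 0.013), except without WT 1% FCS LT replicates 1 or 2 (adjusted p up to 0.058). Galns, a sulfatase for keratan sulfate, was lower in Ctsd-KO cells in 1% FCS, at 17.3, 15.01 and 13.01 CPM against 24.9, 22.1 and 19.5 CPM (-0.55 ± 0.15, adjusted p = 0.0085). Arsb, Ids and Idua passed no test.

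Other genes of the pathway were taken from lists that do not contain the members. Their counts stand beside the shares of all genes called. These were 23.5% higher and 25.1% lower in Ctsd-KO 1% FCS, and 20.5% and 19.1% in Ctsd-KO 1% FCS LT. With time 23.0% rose and 23.4% fell in WT cells, and 1.57% and 0.810% in Ctsd-KO cells. Of 18 further lysosomal hydrolases tested in cells, 1 was higher and 5 lower in Ctsd-KO 1% FCS, 6 were higher and 4 lower in Ctsd-KO 1% FCS LT, 2 rose and 8 fell with time in WT cells, and 0 were called with time in Ctsd-KO cells. Dpp7, a dipeptidyl peptidase, fell in WT cells by 5.36 on the log2 scale, from 33.5, 23.3 and 16.96 CPM to 0.351, 0.613 and 0.811 CPM (adjusted p = 3.2e-06). Acp5, the tartrate-resistant acid phosphatase, was higher in Ctsd-KO cells in 1% FCS by log2 FC 4.40 ± 0.46 (adjusted p = 1.5e-05). Of 20 genes for lysosomal membrane proteins and enzyme sorting, 4 were higher and 0 lower in Ctsd-KO 1% FCS, 5 were higher and 2 lower in Ctsd-KO 1% FCS LT, and 2 rose and 2 fell with time in WT cells. The mannose 6-phosphate receptors M6pr and Igf2r are among them, and Igf2r was higher in Ctsd-KO 1% FCS LT (0.48 ± 0.17, adjusted p = 0.041). Of the 4 regulators tested, Tfe3 and Mitf rose with time in WT cells (0.66 ± 0.09 and 1.07 ± 0.22, adjusted p = 1.1e-04 and 0.0018), and Tfe3 was lower in Ctsd-KO than in WT cells in 1% FCS LT (-0.53 ± 0.09, adjusted p = 6.6e-04). Tfeb and Zkscan3 were not called in either genotype comparison of the cells or with culture time. In the interaction, 4 further hydrolases were called positive and 2 negative, and 1 membrane or sorting gene positive and 1 regulator negative. Of all genes 16.1% were positive and 14.1% negative there. In tumors, 1 of 19 further hydrolases, 1 of 20 membrane and sorting genes and 1 of 5 regulators were higher (8.44% of all genes). There 1 membrane or sorting gene was lower (8.27%). The 8 members with CACGTG in the promoter gave 0 calls higher and 2 lower in Ctsd-KO 1% FCS, beside 3 and 11 of all 36 members and 23.5% and 25.1% of all genes. In Ctsd-KO 1% FCS LT they gave 2 higher and 1 lower, beside 10 and 3 of 36 and 20.5% and 19.1% of all genes. With time in WT cells 0 rose and 4 fell, beside 3 and 15 of 36 and 23.0% and 23.4% of all genes, and in Ctsd-KO cells 0 were called. The interaction called 2 in the positive direction and 0 in the negative, beside 11 and 2 of 36 and 16.1% and 14.1% of all genes. In tumors 2 of the 3 members called higher, Arsa and Glb1, were among the 8, where 8.44% of all genes were called higher.

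Within each cell group, most members had their highest level in the same replicate. In 1% FCS, replicate 1 had the highest level of the 3 for 33 members in WT and 34 in Ctsd-KO cells, while it was highest for 36.6% and 42.4% of all genes tested. Replicate 3 was lowest for 32 and 26 members, against 34.96% and 26.2% of all genes. In 1% FCS LT, replicate 3 was highest for 27 members in WT and 28 in Ctsd-KO cells, against 38.9% and 41.0% of all genes. The lowest level there was split between replicates 1 and 2. They were lowest for 16 and 16 members in WT (36.9% and 29.5% of all genes) and for 19 and 15 in Ctsd-KO cells (37.6% and 28.5%). The summed level of the 36 members was 6461, 5609.6 and 4169 CPM in WT 1% FCS, 5989, 4486 and 4116 CPM in Ctsd-KO 1% FCS, 3942, 3931 and 4693 CPM in WT 1% FCS LT and 4715, 4743 and 5816 CPM in Ctsd-KO 1% FCS LT. The labels carry a code that is LR-38797 for replicate 1 of both 1% FCS groups, LR-38863 for replicate 3 of both LT groups and LR-38862 for the other 8 samples, and they do not say what it stands for. Each group thus has 1 sample with another code, and that sample is the one with the highest sum. With only the 8 samples of code LR-38862, 3 members were higher and 12 lower in Ctsd-KO 1% FCS (21.2% and 23.5% of all genes in that fit), and 12 were higher and 5 lower in Ctsd-KO 1% FCS LT (19.1% and 18.1%). With time, 5 rose and 16 fell in WT cells (21.1% and 21.9%), and 2 rose (Galc and Idua) and 0 fell in Ctsd-KO cells (3.4% and 1.59%).

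In tumors, 3 members were called higher in Ctsd-KO mice at the study's threshold of an unadjusted p under 0.1 and 0 were called lower, against 8.44% and 8.27% of the 18617 genes tested. Psap had 1229, 1059.7, 725 and 573 CPM in control tumors and 1254, 1156, 1369 and 1314 CPM in Ctsd-KO tumors, a log2 FC of 0.51 ± 0.27 (adjusted p = 0.59, edgeR). Glb1 had 90.9, 72.5, 72.7 and 60.4 CPM and 85.7, 108, 100.5 and 96.5 CPM (0.40 ± 0.19, adjusted p = 0.57). Arsa had 13.98, 18.2, 6.02 and 7.89 CPM and 17.5, 11.3, 27.7 and 19.3 CPM (0.72 ± 0.38, adjusted p = 0.59). The genotypes overlapped for each of the 3, and 0 of the 36 members separated them, whereas 2.26% of all genes did so in the higher and 1.89% in the lower direction. At an adjusted p under 0.05, 0 members passed and 1 gene of all tested (0.00537%) did, and at an unadjusted p under 0.05, 0 members and 8.94% of all genes. The share of 3 in 36 is 8.33%, next to the 8.44% of all genes.

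The median log2 FC of the members in tumors was 0.13, and 25 of 36 were positive. The spread lay on the control side. The summed level of the 36 was 5186, 5073, 4044 and 3888 CPM in control tumors 1 to 4 and 5023 to 5349.9 CPM in the Ctsd-KO tumors. Control tumors 3 and 4 also had the largest shares of reads set aside as overlapping several genes, 12.4% and 15.6%, against 7.11% to 9.75% in the other 6. Grn, at 609, 539, 325 and 210.3 CPM, and Gaa, at 220.1, 162, 105 and 45.6 CPM, were lowest in control tumor 4, and Asah1, at 119.8, 123, 121 and 179 CPM, was highest there. Without control tumors 3 and 4, a choice made after seeing the data, the median was -0.05 and 0 members were called, with 5.95% of all genes called higher and 3.35% lower. Without control tumor 1 alone, 8 were called higher, where 10.3% of all genes were. The controls carried 1 label code and the Ctsd-KO tumors another, so code and genotype cannot be told apart.

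**Figure D5:**
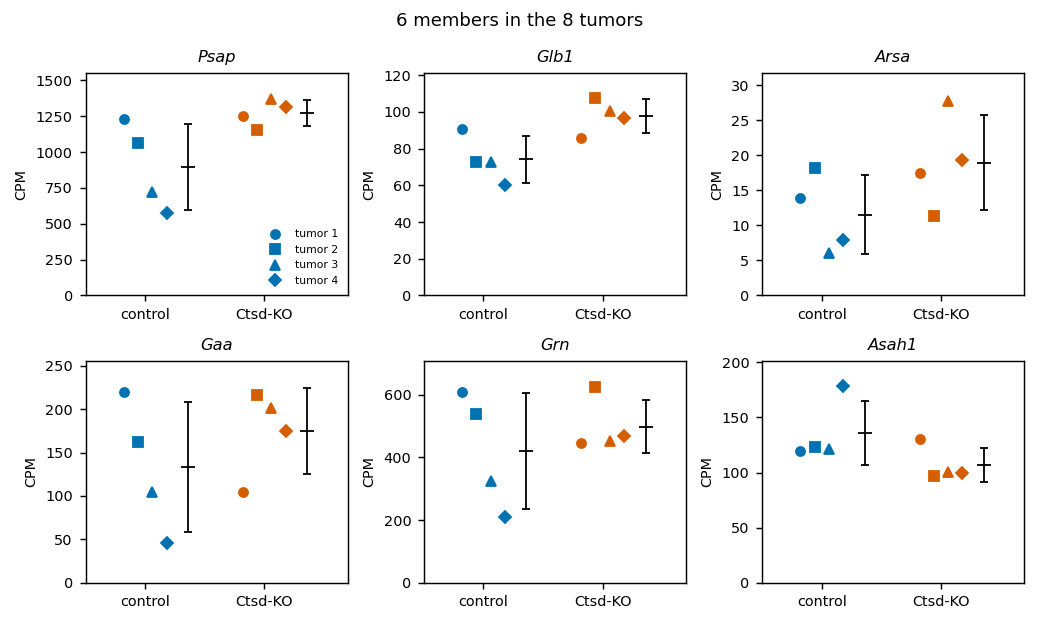
CPM of 6 members in the 8 tumors, from 0 on each y axis, with symbols for tumors 1 to 4 of each genotype and the mean ± SD (n = 4) beside them. Psap, Glb1 and Arsa are the 3 members called, and in all 6 panels the genotypes overlap, with control tumors 3 and 4 low for Psap, Arsa, Gaa and Grn.

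Some markers of other cell types were called in the tumors at the unadjusted p under 0.1, by which 8.44% of all genes were called higher. All 6 adipocyte markers were called higher in Ctsd-KO tumors, with sums of 222 to 2280.2 CPM in controls and 1142 to 11592 CPM in Ctsd-KO mice. The genotypes overlapped for each, and the lowest adjusted p among them was 0.37 (edgeR). Of 4 endothelial markers 3 were called higher, with sums of 30.7 to 92.3 and 47.5 to 230.1 CPM. They too overlapped between the genotypes, with a lowest adjusted p of 0.54 (edgeR). Of the 4 T cell markers 1 was called higher, with sums of 9.69 to 14.0 and 9.66 to 19.4 CPM. The 10 macrophage markers, of a cell type rich in lysosomes, summed to 944 to 2277 CPM in controls and 1065 to 2217 CPM in Ctsd-KO tumors, with 0 called. The 8 epithelial markers summed to 5162 to 8704 CPM and 4527 to 6635 CPM, also with 0 called. The 8 fibroblast markers summed to 868 to 3465 CPM and 1697 to 2906 CPM, with 1 called higher. Their part in the members' values was not tested.

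Counting without regard to strand also cost some members their reads where genes overlap on opposite strands. In the cells, where both forms of counts can be compared, it kept 52.8% of the reads of Arsb, 71.5% of Sgsh, 77.4% of Dnase2a and 82.2% of Acp2, and 100% of Psap.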

How the data were processed

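RNA-seq was run on 8 tumors and 12 samples of cultured tumor cells. Per the labels and the study's methods, the authors deposited raw counts of reads per gene, not normalized, from trimmed reads that STAR had aligned to mm10 (GRCm38). The annotation release is not given in the sources used here, and symbols came from GENCODE M21, which held 45143 of the 45706 identifiers. Counts regardless of strand were used for the tumors (52.8% to 53.7% of stranded reads on the opposite strand) and counts on the opposite strand for the cells (97.1% to 97.3%). Tumors and cells were fitted apart with edgeR 4.0.16 in R 4.3.3, using filterByExpr, TMM and the quasi-likelihood F-test, two-sided, with 1 mean per group. SE is the absolute log2 fold change divided by the square root of F. Calls needed a Benjamini-Hochberg adjusted p under 0.05 over the 15178 genes tested in cells and, as in the study, an unadjusted p under 0.1 over the 18617 tested in tumors.

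The members and all lists (5 substrate classes, other lysosomal hydrolases, lysosomal membrane and enzyme sorting, lysosomal gene regulators, and markers of epithelium, fibroblasts, macrophages, adipocytes, endothelium and T cells) were chosen with earlier results of these data known. Members called, without overlap between groups, and with the largest change, up to 4 in each direction, were given in every sample, and were followed through the other comparisons. The 4 T cell markers summed to at most 19.4 CPM in any sample. The labels call the cell samples biological replicates. Where replicates do not come from separate cultures or animals, p-values measure only the spread between samples. Same-numbered samples did not deviate together in every pair, so the numbers were not used as pairs. DESeq2 1.42.0, limma-voom (limma 3.58.1), other filters and left-out samples were tried as alternatives.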

Additional observations from a re-analysis of the deposited data

Results flagged for a closer look

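In the tumors, 5 of the 72 groups of 4 values had a sample far from the other 3, a number near the 1 in 20 that chance gives. These were Asah1 in control tumor 4 (179 CPM) and in Ctsd-KO tumor 1 (130.2 CPM), Grn in Ctsd-KO tumor 2 (624 CPM), Galns in Ctsd-KO tumor 2 (31.2 CPM) and Ppt2 in control tumor 1 (31.7 CPM).

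In the cells, the genotype difference itself differed between 1% FCS LT and 1% FCS for 13 members by the edgeR interaction test. It was more positive in 1% FCS LT for Scpep1 (log2 1.81), Lipa (1.73), Arsa (1.60), Lgmn (1.21), Manba (1.04), Acp2 (0.99), Pla2g15 (0.94), Grn (0.94), Fuca1 (0.86), Gusb (0.69) and Ppt2 (0.67). It was more negative for Gm2a (-1.38) and Dnase2a (-0.70). All of these tests use the WT 1% FCS libraries, which carried some of the fibroblast markers, and the part of those markers was not tested.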

How the results depend on the processing

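In no alternative run did a called member change sign. In the cells, the calls held under every other tool, filter, strand setting and sample subset, and with the replicate block, for 13 of 14 members in 1% FCS, 13 of 13 in 1% FCS LT, 18 of 18 with time in WT cells and 11 of 13 in the interaction. They held when any of the samples compared was left out for 10 of 14, 7 of 13, 13 of 18 and 6 of 13. Pla2g15 in 1% FCS was lost with limma-voom, with the replicate block and with the 8 samples of code LR-38862. In the interaction, Dnase2a was lost with counts regardless of strand, which gave 1 call lower in place of 2, and Ppt2 without the filter on low counts and with the 8 samples.

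In the tumors the 3 calls higher became 0 with the replicate block (5.94% of all genes) and 0 at an adjusted p under 0.05 (0.00537%). They also became 0 with the 6 tumors whose ambiguous share was under 10% (5.95%), a subset chosen after seeing the data. With that subset the median of the members turned from 0.13 to -0.05. Without 1 tumor the calls ranged from 0 to 8 higher (5.12% to 11.3% of all genes) and from 0 to 1 lower (4.32% to 12.1%). They were 8 without control 1, 0 without control 3 or Ctsd-KO 3, and 1 without control 4 or Ctsd-KO 4, and 1 was lower without control 4 (Ids) or Ctsd-KO 1 (Asah1). The numbers of the replicates were not used to pair the samples in the main fit. Correlations of same-numbered deviations ran from -0.303 to -0.00755 in tumors, and some were under 0.1 in every pair of cell groups. In 2 of the 6 pairs of cell groups every sample correlated best with its own number, a hint from the data and not from the design. The block moved no other count of calls by over 1.5 times.

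With time in Ctsd-KO cells the 0 calls higher became 1 without the filter (1.8% of all genes) and 1 with DESeq2 (4.39%). They became 1 with the 9 samples that leave out WT 1% FCS (2.51%), a choice made after seeing the data. With the 8 samples they became 2 (3.4%). Whichever replicate was left out, they stayed 0 (0.199% to 1.76%). The 8 samples also gave 5 lower in Ctsd-KO 1% FCS LT (18.1% of all genes) and 5 higher with time in WT cells (21.1%). An absolute log2 fold change above 1 left 1 lower in 1% FCS (14.6% of all genes), and 4 higher and 0 lower in 1% FCS LT (9.24% and 10.1%). It left 1 higher and 7 lower with time in WT cells (11.0% and 12.3%), and 5 and 1 in the interaction (11.0% and 8.12%).

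Without 1 replicate, members higher and lower in Ctsd-KO 1% FCS were 3 and 7 to 16 (19.4% to 21.8% and 20.5% to 24.7% of all genes). In Ctsd-KO 1% FCS LT they were 6 to 11 and 2 to 3 (15.7% to 18.3% and 14.9% to 16.7%). With time in WT cells they were 2 to 5 and 11 to 18 (18.9% to 21.8% and 19.7% to 22.5%). In the interaction they were 5 to 15 and 1 to 3 (12.8% to 16.1% and 10.3% to 15%). Members lower in 1% FCS were 7 without Ctsd-KO 1% FCS replicate 3. In 1% FCS LT, 6 were higher without WT 1% FCS LT replicate 2 or Ctsd-KO 1% FCS LT replicate 3. With time in WT cells, 5 rose without WT 1% FCS replicate 1. For the interaction the count higher was 5 and 6 without Ctsd-KO 1% FCS replicates 2 and 3 (13.4% and 12.8% of all genes). It was 7 without WT 1% FCS LT replicate 1 or 2 (14% and 13.3%). The count lower in the interaction was 1 without Ctsd-KO 1% FCS replicate 1 or 2, WT 1% FCS LT replicate 2 or 3, or Ctsd-KO 1% FCS LT replicate 1 or 2. The cause was not tested. All 36 members passed the filter on low counts, and whether depth limited the calls was not tested.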
